A study of Homo sapiens with 30 samples.

Results

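Pollen was compared with mock 10 min after whole birch pollen had been dosed onto BEAS-2B cells, a bronchial epithelial line of human origin that was immortalized in culture. The arrays were chosen by their labels, as all those with a time of 10 min, and came to 6 of the 30 arrays of the series. Of these, 3 were labelled pollen and 3 air, the latter called mock here. The cells had been grown on Transwell inserts and kept at the air-liquid interface before exposure. They received 10 mg of whole birch pollen, dispersed with pressured air into a sedimentation chamber, or the mock procedure, in which a mesh kept the grains from the cells while the air puff was the same. The labels give the mock arrays the 10 mg of the exposure they belong to. The methods give 10 min for the sedimentation, the same length as the earliest time on the labels. All 10 groups of the series, pollen and mock at each of 5 times up to 24 h, held 3 arrays of this line, and no other agent is named for any of them. BEAS-2B is a single line, grown without other cell types. The methods state that exposures were repeated on different days, each with its own mock control, without saying which array came from which day.

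Immediate early genes are transcribed within minutes of a stimulus, from factors already in the cell, without new protein. They include the AP-1 subunits of the FOS and JUN families and the EGR zinc finger factors. MAP kinases and the serum response factor switch them on, and phosphatases of the DUSP family and RNA-binding proteins such as ZFP36 end the response. In airway epithelium, proteases, particles and pressure can start such a program, and the NF-kB cytokines and the alarmins IL33, TSLP and IL25 act on leukocytes of the airway. At 10 min a change in RNA level is limited by the time needed to make a transcript. The comparison thus asks what the cells express when the exposure begins, and whether any of these groups differed already.

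The promoters of the genes CCN2 and EGR1 are shown because these genes carry the comparisons below: CCN2 was the only gene whose pollen effect was called different from that at 10 min in the fit without a replicate block, and EGR1 is the textbook target of the serum response factor. The sequences are the 250 bases before the start site from RefSeq on GRCh38.p14, 5′ to 3′ on the strand of the gene. In CCN2 (chr6:131951373-131951622, minus strand) the capitals mark the motif GGAATG, bound by the TEAD partners of the mechanosensitive coactivator YAP. In EGR1 (chr5:138465229-138465478, plus strand) they mark the CArG box, the site of the serum response factor.
CCN2: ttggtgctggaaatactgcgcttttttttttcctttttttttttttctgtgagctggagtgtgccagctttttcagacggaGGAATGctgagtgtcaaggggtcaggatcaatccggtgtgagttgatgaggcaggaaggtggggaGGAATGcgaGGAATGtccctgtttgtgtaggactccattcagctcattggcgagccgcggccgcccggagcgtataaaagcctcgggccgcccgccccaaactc
EGR1: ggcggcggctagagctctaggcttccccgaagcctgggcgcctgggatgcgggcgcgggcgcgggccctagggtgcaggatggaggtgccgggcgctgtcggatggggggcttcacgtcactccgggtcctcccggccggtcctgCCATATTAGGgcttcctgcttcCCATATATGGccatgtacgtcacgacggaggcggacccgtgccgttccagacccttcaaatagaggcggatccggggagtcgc
Both strands were searched, and overlapping matches were allowed. CCN2 held 3 GGAATG motifs, starting 169, 104 and 95 bases before the start site, and 0 CArG boxes. Of 35116 promoters of this length, 11.9% held at least 1 GGAATG and 29 held 3 or more. EGR1 held 2 CArG boxes, starting 105 and 83 bases before the start site. At least 1 CArG box was found in 1.16% of all promoters, and in 2 of the 51 promoters found for the genes of the immediate early lists. A match is a description of these letters only.

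Expression was measured on Agilent microarrays of 1 colour, where the brightness of a probe reflects how much Cy3-labelled RNA it bound. Levels are given as the log2 of the background-subtracted signal relative to the 75th percentile of the array, so a level of 0 is a probe as bright as that percentile, and levels of different probes were not compared. That percentile lay between 1044 and 2111 intensity units on the 6 arrays, lowest on mock replicate 3. Of all probes, between 47.5% (mock replicate 3) and 57.3% (pollen replicate 1) were well above background, the mark of Feature Extraction for a spot clearly brighter than its surroundings. The other 24 arrays ranged from 44.7% to 59.3%, and 0 probes were saturated on any array. All 6 arrays of 10 min lay on 1 slide and were scanned on 1 day. On it, the pollen array stood directly before the mock array of the same number in each pair, so position and exposure cannot be told apart.

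Epithelial markers were present, and no reference profile of the line was compared. All 16 epithelial markers, among them the keratins KRT7, KRT8, KRT18 and KRT19 and the adhesion protein CDH1, were well above background on all 6 arrays. CDH1 ranged from 1.81 to 2.43 and KRT7 from 6.94 to 7.28. Mesenchymal genes were present too, 10 of 12 on all 6 arrays, with VIM between 6.30 and 7.09, while PDGFRA and LUM were not well above background on any. Of 7 genes of ciliated cells, the dynein genes DNAI1 and DNAH5, CCDC39 and TEKT1 were at background on all 6 arrays, and FOXJ1, their defining factor, was above it on 2. The other members, RSPH1 and CFAP53, were above background on 6 and 5 arrays. Of 7 genes of mucous and club cells, 6 were above background on all 6 arrays and the mucin MUC5B on none.

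Markers of other cells were mostly at background. The mast cell genes TPSAB1, MS4A2, FCER1A and KIT were not well above background on any array, nor were the leukocyte genes MS4A1 and CD163 or the endothelial genes PECAM1 and CLDN5. Probes of PTPRC, ITGAM, HDC, CDH5 and VWF were above it on all 6 arrays, PTPRC at -4.74 to -4.12. The summed signal of the 8 leukocyte markers with a probe was -2.99 to -2.69 in mock and -3.05 to -2.74 in pollen. The 16 epithelial markers summed to 8.09 to 8.4 in mock and to 8.03 to 8.24 in pollen. No marker was called different between pollen and mock, and 0 had an unadjusted p under 0.05. Within the marker lists the log2 difference, pollen minus mock, reached from -0.43 for TP63, the factor of basal cells, to 0.56 for VWF, of endothelial cells. In bulk RNA, fewer cells of a type and less RNA per cell cannot be told apart.

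Of the immediate early genes, most were already well above background on all 6 arrays at 10 min, 20 of 22 tested transcription factors and 41 of 42 other genes. EGR1, a zinc finger factor, read 4.005, 4.02 and 4.11 in mock replicates 1 to 3 and 4.07, 4.39 and 4.09 in pollen. The arrays overlapped, with pollen replicate 2 the highest. IER2, a small nuclear protein of the same program, read 4.69, 4.65 and 4.74 in mock and 4.72, 4.85 and 4.93 in pollen. Its pollen value was the higher in all 3 pairs while the groups overlapped, and the log2 difference was 0.14 (95% interval -0.36 to 0.64, limma). EGR3, the third EGR factor of the panel, and IL25 were not well above background on any of the 6 arrays and were not tested.

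No probe was called different between pollen and mock at 10 min. Of 32099 probes tested with limma, of 24511 gene names, 0 were called at an adjusted p under 0.05 and at least 1.1-fold, a background of 0%, and the smallest adjusted p was 0.957. An unadjusted p under 0.05 was reached by 587 probes, 1.83%, of which 457 were higher and 130 lower in pollen. With the replicate number as a block, 0 probes were called and 1112 reached an unadjusted p under 0.05, and no setting of the analysis that kept the filter and the scaling between arrays called any probe. The median difference over all genes was 0.00, and 50.8% of genes were higher in pollen. Over the 27238 probes well above background on all 6 arrays, the 95% confidence interval of the log2 difference had a median half-width of 0.34, 1.27-fold. Smaller changes in single genes could not be detected with 3 arrays a group. The interval is not adjusted for the number of probes, so larger changes could go uncalled too. LINC02817, above background on all 6 arrays, differed by 1.28 and was not called.

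Probes near background need care in this comparison. Of the 27238 probes above background on all 6 arrays, 48.9% were higher in pollen, and 160 higher and 100 lower ones had an unadjusted p under 0.05. The other 4861 tested probes had a median difference of 0.17, but the filter itself sets part of that lean. Of these, 2957 passed through the pollen arrays of 10 min and not through the mock arrays, where replicate 3 had the fewest probes above background, and 90 passed the other way round. The 1814 that passed through another time alone had a median of 0.03, with 52.9% higher. Without mock replicate 3, 444 of all probes with an unadjusted p under 0.05 were higher and 108 lower. Under quantile normalization 223 were higher and 138 lower. Both settings kept the probes that were filtered with mock replicate 3 included, so neither can show the part of the filter in the lean.

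The 4 members of the FOS and JUN families in the panel had higher values in pollen in every pair, and none passed the test. ATF3, of the wider AP-1 family, was higher in pollen in 1 of 3 pairs and differed by -0.04. FOS read -0.05, 0.18 and 0.81 in mock and 0.81, 0.59 and 1.19 in pollen. Pollen was the higher in all 3 pairs while the groups overlapped, since mock replicate 3 lay above pollen replicate 2. The log2 difference was 0.55 (95% interval -0.78 to 1.87, adjusted p = 1.00, limma). FOSB read -4.86, -4.68 and -4.20 in mock and -3.62, -4.26 and -3.60 in pollen, a difference of 0.75 (-0.67 to 2.18). All 3 pairs again lay in the same direction, and mock replicate 3 again lay above pollen replicate 2.

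JUN, the partner of FOS in AP-1, read 1.04, 1.56 and 1.53 in mock and 1.78, 1.80 and 1.70 in pollen, and the groups did not overlap. The difference was 0.38 (-0.33 to 1.09). JUNB, another partner, read -3.75, -3.74 and -3.98 in mock and -3.27, -3.34 and -3.69 in pollen, likewise without overlap, and differed by 0.39 (-0.27 to 1.05). Pollen was above mock in all 3 pairs for 14.6% of the probes tested, and above mock without overlap for 3.86%, and below mock without overlap for 1.96%. Across all 24 alternative settings the differences of FOS, FOSB, JUN and JUNB kept their sign, and the smallest adjusted p of any of them was 0.618. With the replicate block and the 6 arrays alone, the unadjusted p was 0.0115 for FOS, 0.0118 for FOSB and 0.0105 for JUNB (limma). The adjusted p-values were 0.629, 0.629 and 0.618. In that fit 6.14% of all probes had an unadjusted p under 0.05.

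**Figure D1:**
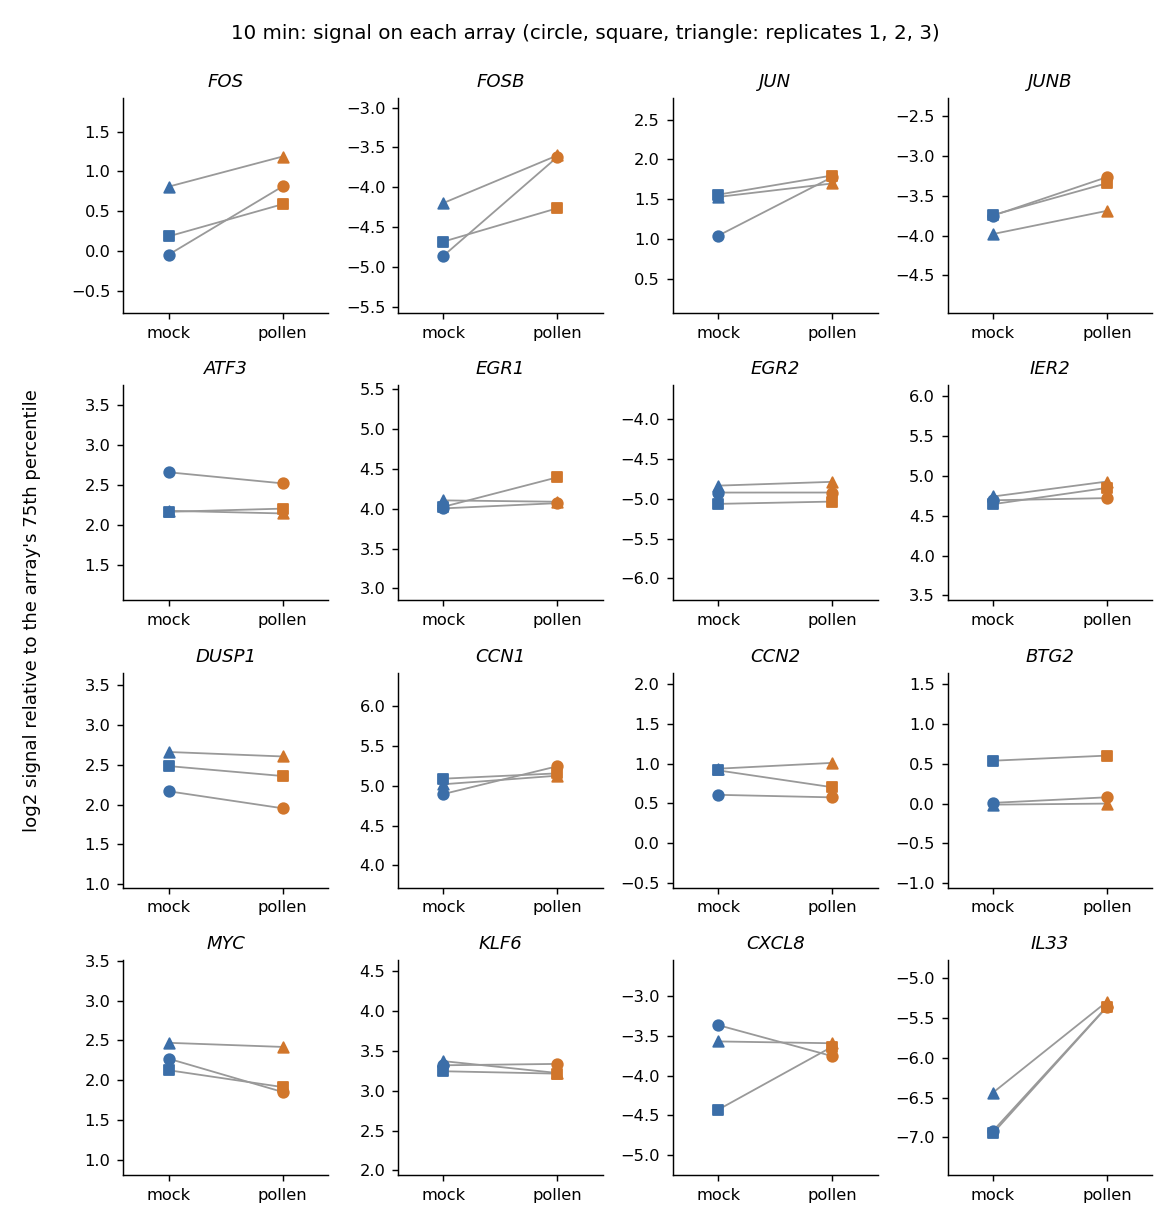
Log2 signal relative to the 75th percentile of the array for 16 genes on the 6 arrays of 10 min, mock in blue and pollen in orange. Circles, squares and triangles are replicates 1, 2 and 3, lines join arrays with the same number, and all panels span the same log2 range. The lines of FOS, FOSB, JUN and JUNB slope upwards in all 3 pairs, though none was called, EGR2 and BTG2 are nearly flat, and IL33 lies between -6.94 and -6.44 in mock and between -5.36 and -5.29 in pollen.

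Most of the other immediate early transcription factors of the panel had smaller differences. EGR2 read -4.92, -5.06 and -4.84 in mock and -4.92, -5.04 and -4.79 in pollen, a difference of 0.03 (-0.69 to 0.74). EGR1 differed by 0.14 (-0.49 to 0.77), the stress factor ATF3 by -0.04 (-0.75 to 0.67) and KLF6 by -0.05 (-0.47 to 0.36). MYC, the growth regulator, read 2.27, 2.13 and 2.47 in mock and 1.85, 1.92 and 2.42 in pollen, lower in all 3 pairs with overlap, a difference of -0.23 (-0.65 to 0.20). NR4A1, an orphan nuclear receptor, was well above background on 2 mock arrays and on no pollen array. It read -5.55, -6.80 and -6.77 in mock, the last at background, and -7.36, -6.99 and -7.63 in pollen. Its mock mean stood 1.55-fold above the bound for pollen, the lowest signal that counted as above background on those arrays (adjusted p = 1.00, limma). That mean includes the mock array at background and is raised by replicate 1, so the fold is not a minimum.

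Among the phosphatases, RNA-binding proteins and matrix genes of the program, values near 0 prevailed. DUSP1, which dephosphorylates MAP kinases, read 2.17, 2.48 and 2.66 in mock and 1.95, 2.36 and 2.61 in pollen. The order of the replicates was the same in both groups, and the difference was -0.13 (-0.83 to 0.57). DUSP6, a phosphatase of ERK, differed by 0.02 (-0.31 to 0.36), IER3 by 0.04 (-0.39 to 0.47) and ZFP36, which destabilizes cytokine transcripts, by 0.15 (-0.37 to 0.67). CCN1, a matrix protein and YAP target, read 4.90, 5.09 and 5.02 in mock and 5.25, 5.16 and 5.13 in pollen without overlap, a difference of 0.17 (-0.23 to 0.58). CCN2 read 0.61, 0.91 and 0.94 in mock and 0.58, 0.70 and 1.01 in pollen, with a difference of -0.06 (-0.31 to 0.19). DUSP2, a nuclear phosphatase, had the highest difference of its list, 0.68 (-0.06 to 1.42), and ID1, an inhibitor of helix-loop-helix factors, the lowest, -0.19 (-0.88 to 0.49).

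As a list, the 22 tested immediate early transcription factors had 13 members higher and 9 lower in pollen, a median difference of 0.07 and 0 members called, beside 0.00 over all genes. Of them, 8 were higher in all 3 pairs and 3 lower in all 3, where 3433 of all 24511 genes, 14.0%, were higher in all 3. By pair, the list's median was 0.09, 0.05 and -0.01. The 42 other immediate early genes were split into 21 higher and 21 lower, with a median of -0.02 and 0 called. In the fit to all arrays without a replicate block, neither list had a member with an unadjusted p under 0.05. With that block and the 6 arrays of 10 min alone, 1972 of all 32099 probes, 6.14%, were under it, 1429 of them higher in pollen. FOS, FOSB, JUNB, NR4A1 and DUSP2 were among the list members under it. NR4A1 was lower in pollen and the others higher, and none was called. The smallest of these p-values, for DUSP2, was 0.0017 (adjusted p = 0.442, limma).

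**Figure D2:**
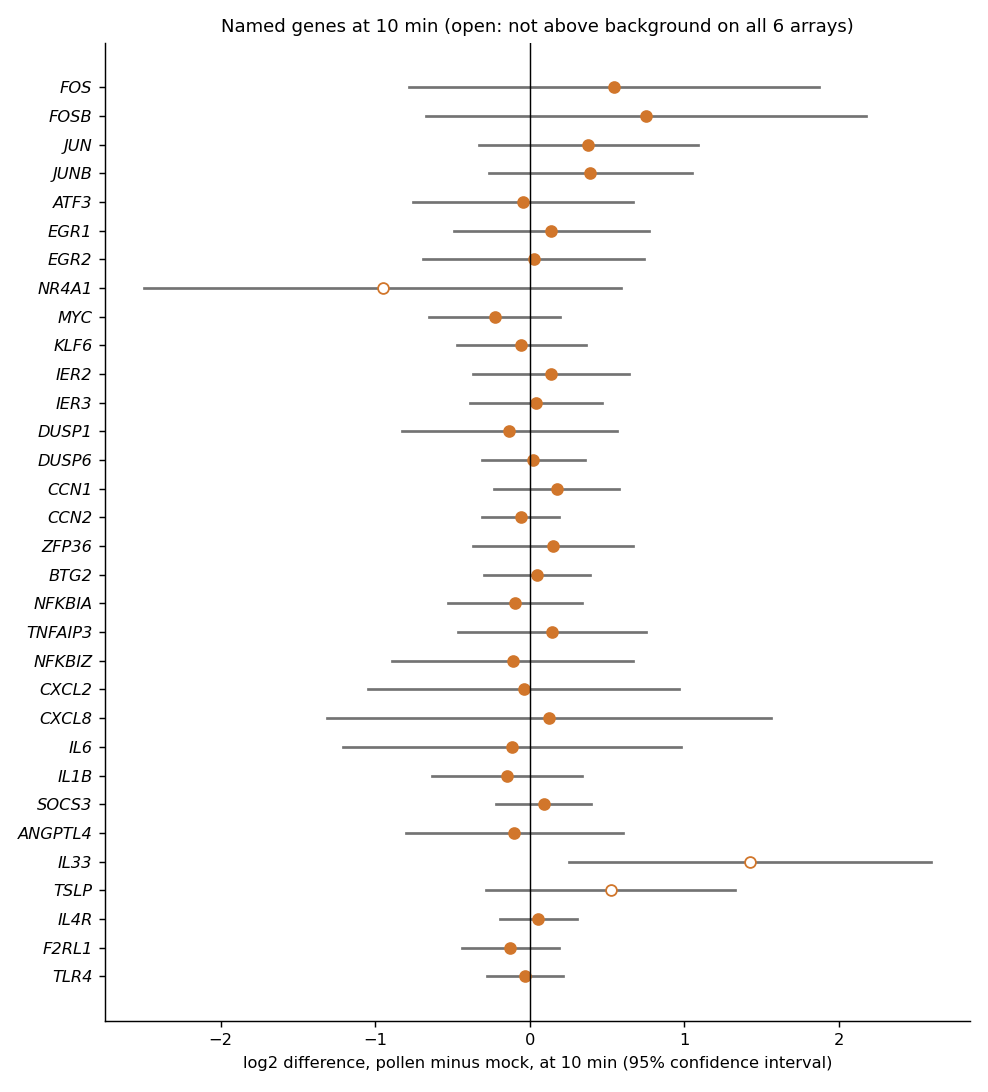
Log2 difference between pollen and mock at 10 min for the 32 tested genes of the panel, with 95% confidence intervals from limma; open circles mark genes not well above background on all 6 arrays. The interval holds 0 for every gene except IL33.

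Inflammatory genes were expressed at 10 min and did not separate. NFKBIA, the NF-kB inhibitor, read 3.11, 3.46 and 3.39 in mock and 2.82, 3.45 and 3.40 in pollen, and differed by -0.10 (-0.53 to 0.34). TNFAIP3, which limits the same pathway, differed by 0.14 (-0.47 to 0.75), NFKBIZ by -0.11 (-0.89 to 0.67), the neutrophil chemokine CXCL2 by -0.04 (-1.04 to 0.97) and IL1B by -0.14 (-0.63 to 0.34). CXCL8, another neutrophil chemokine, read -3.37, -4.43 and -3.57 in mock and -3.76, -3.64 and -3.59 in pollen. The mock arrays enclosed the pollen arrays, and the difference of 0.13 had a wide interval of -1.31 to 1.56. IL6 differed by -0.12 (-1.21 to 0.98), SOCS3, which restrains its signalling, by 0.09 (-0.22 to 0.40), and ANGPTL4, of lipid metabolism, by -0.10 (-0.80 to 0.60). Of 35 NF-kB targets and cytokines, 16 were higher and 19 lower, with a median of -0.01 and 0 called. TRAF1, an adaptor of TNF receptors, was the lowest at -0.35 (-0.69 to -0.02), the only member with an unadjusted p under 0.05, and TNF the highest at 0.20.

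Of the 17 alarmin and type 2 genes, 10 could be tested, with 6 higher, 4 lower, a median of 0.04 and 0 called. IL33, the nuclear alarmin of the IL-1 family, was close to background. It read -6.92, -6.94 and -6.44 in mock, where 1 of 3 arrays was well above background, and -5.36, -5.36 and -5.29 in pollen, where all 3 were. Of the 10 groups of the series, pollen at 10 min was the only one with all 3 arrays above background, so the probe entered the test through the group in which it was high. The measured log2 difference, part of it against signal at background, was 1.43 (0.26 to 2.6) with an unadjusted p of 0.0191 and an adjusted p of 1.00 (limma), and over the alternative settings the adjusted p ranged from 0.320 upwards and the difference from 0.35 to 1.62. Its effect at 55 min was -0.58 and at 2h25 min -0.55, neither called. The probe lies at chr9:6257372-6257431 on hg19. TSLP was above background on 1 array of each group and differed by 0.53 (-0.28 to 1.33). The receptors IL4R, F2RL1 (PAR2, cleaved by proteases) and TLR4 differed by 0.06, -0.12 and -0.03. F2RL1 read 0.04, 0.10 and 0.05 in mock and -0.13, -0.01 and -0.05 in pollen, lower in all 3 pairs without overlap.

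None of the remaining lists held a called gene. The median was -0.02 for surface and pattern receptors (30 tested, 13 higher) and -0.03 for YAP targets (17 tested, 4 higher), which include CCN1, CCN2 and LATS2. Heat shock chaperones had a median of -0.03 (20 tested, 7 higher), from HSPA1L at -0.24 to DNAJB1 at 0.12. Hypoxia and glycolysis genes stood at -0.02 with 10 of 25 higher, and the unfolded protein and integrated stress response at -0.07 with 6 of 23 higher, the chaperone CALR lowest at -0.22 and ATF5 highest at 0.12. For NRF2 targets, which answer oxidants, 7 of 20 were higher and the median was -0.05, from ABCC2 at -0.27 to OSGIN1 at 0.32. Interferon-stimulated genes stood at -0.03 with 10 of 26 higher, and glucocorticoid receptor targets at -0.09 with 6 of 19 higher, the metallothionein MT2A lowest at -0.20.

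Lists of growth and metabolism held no called gene either. Cholesterol synthesis genes had 5 of 24 higher and a median of -0.06, with INSIG1, the brake on the pathway, lowest at -0.31. Cell division genes had 10 of 45 higher and a median of -0.06, with KIF4A, a kinesin, highest at 0.16 and the checkpoint gene MAD2L1 lowest at -0.23. Oxidative phosphorylation genes had 9 of 31 higher and a median of -0.07. Ribosome biogenesis was split evenly, 25 of 50 higher, with a median of 0.00, and NHP2, of the box H/ACA particles, was the lowest at -0.33 with an unadjusted p of 0.00655 (adjusted p = 1.00, limma). Of all genes tested, 50.8% were higher. Over the settings with scaling, the median ran from -0.18 to 0.06 for cholesterol synthesis and from -0.09 to 0.03 for oxidative phosphorylation. For ribosome biogenesis it ran from -0.04 to 0.03. For cell division (-0.11 to -0.02) and YAP targets (-0.09 to -0.002) it stayed below 0. The cause was not tested.

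**Figure D3:**
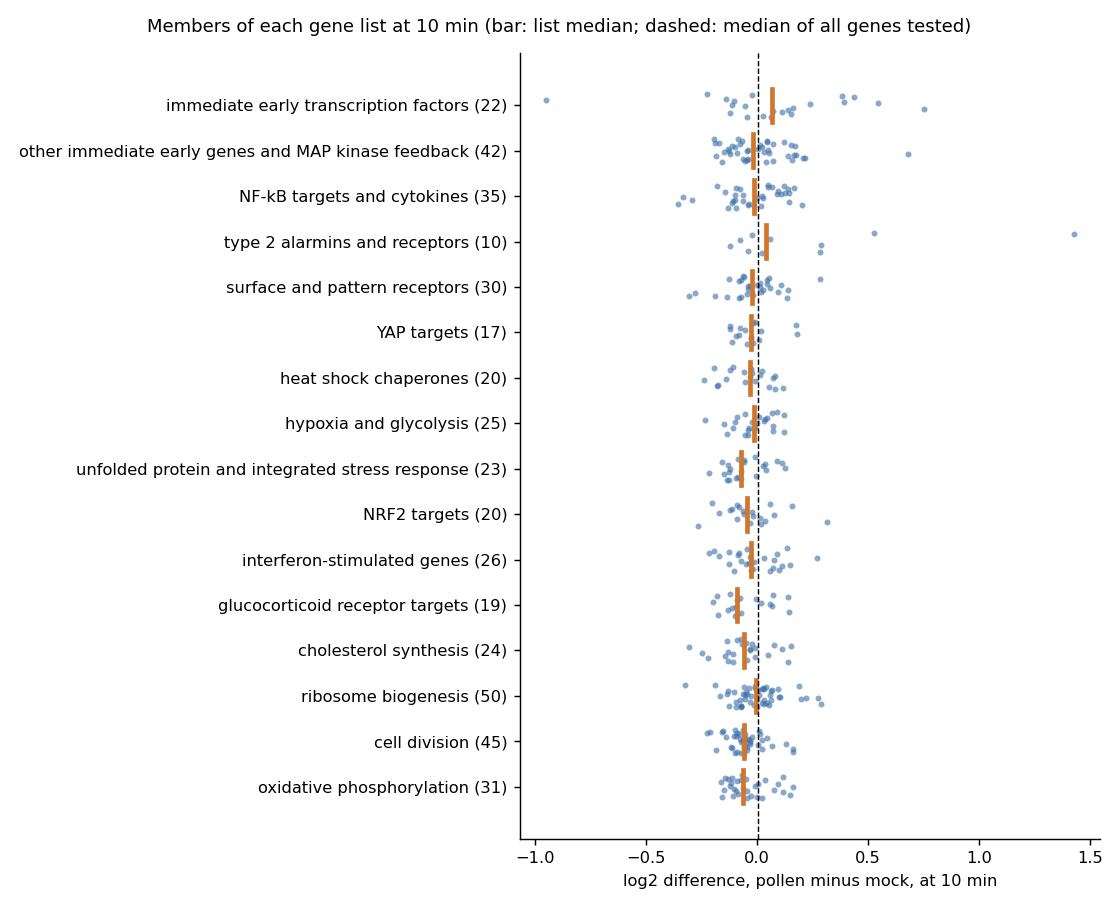
Log2 difference between pollen and mock at 10 min for the tested members of 16 gene lists, with the number tested in brackets; each point is a gene, each orange bar the median of its list and the dashed line the median of all genes tested. The medians lie between -0.09 and 0.07. NR4A1 and IL33, the isolated points on the left and right, are drawn at their measured differences, although NR4A1 was above background on 0 of 3 pollen arrays and IL33 on 1 of 3 mock arrays.

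The genes with the largest differences, taken by a rule from probes with a gene symbol and above background on all 6 arrays, were measured by dim probes. By the rule of an unadjusted p under 0.05 and one direction in all 3 pairs, 93 probes were higher and 60 lower, and 0 of them were called. LINC02817, a long noncoding RNA, read -4.72, -4.81 and -4.31 in mock and -3.27, -3.66 and -3.05 in pollen, a difference of 1.28, while its other probe differed by -0.22. RAI1 differed by 1.18, through 1 pollen array: it read -5.57, -5.66 and -5.61 in mock and -4.84, -2.996 and -5.45 in pollen, and its 3 other probes differed by 0.12, 0.35 and 0.03. PEBP4-AS1, LOC101927418 and SLC22A31 were higher by 1.16, 1.09 and 1.06. On the lower side stood the noncoding LINC02332 by -1.01, MIR100HG by -0.81, TPTE2 by -0.73, LINC01526 by -0.73 and PAK1, a kinase of cytoskeletal signalling, by -0.67. PAK1's other probe differed by 0.09 and that of TPTE2 by 0.12. Those of MIR100HG lay between -0.12 and 0.52, so probes of PAK1, TPTE2 and MIR100HG disagreed. The other probes of LINC02332 and LINC01526 were lower too, by -0.22 and -0.27, less than the probes named above. Adjusted p-values over all settings stayed at 0.395 or above for these 10 genes (limma).

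The 6 arrays varied along several directions. The first 2 principal components of the 27238 probes above background on all 6 arrays took 34.7% and 27.5% of the variance, and on neither were all pollen arrays on one side of all mock arrays. On the first component, replicate 2 stood at -32.8 (mock) and -20.0 (pollen), and the other arrays between 5.92 and 26.1. On the second, pollen was lower than its mock partner in all 3 pairs, by number -19.7 against -12.8, -12.8 against -1.29 and 16.1 against 30.5. The third, with 14.9% of the variance, separated pollen (3.28 to 17.2) from mock (-23.1 to 1.93). Pairs of arrays with the same number differed by a median of 0.10 to 0.15 over probes, pairs within a group by 0.17 to 0.21. BTG2, an antiproliferative gene, read 0.01, 0.54 and -0.01 in mock and 0.08, 0.60 and 0.00 in pollen, with replicate 2 the highest in both. ANGPTL4 read -0.12, -0.84 and 0.28 in mock and -0.38, -0.74 and 0.14 in pollen, with replicate 2 the lowest in both.

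**Figure D4:**
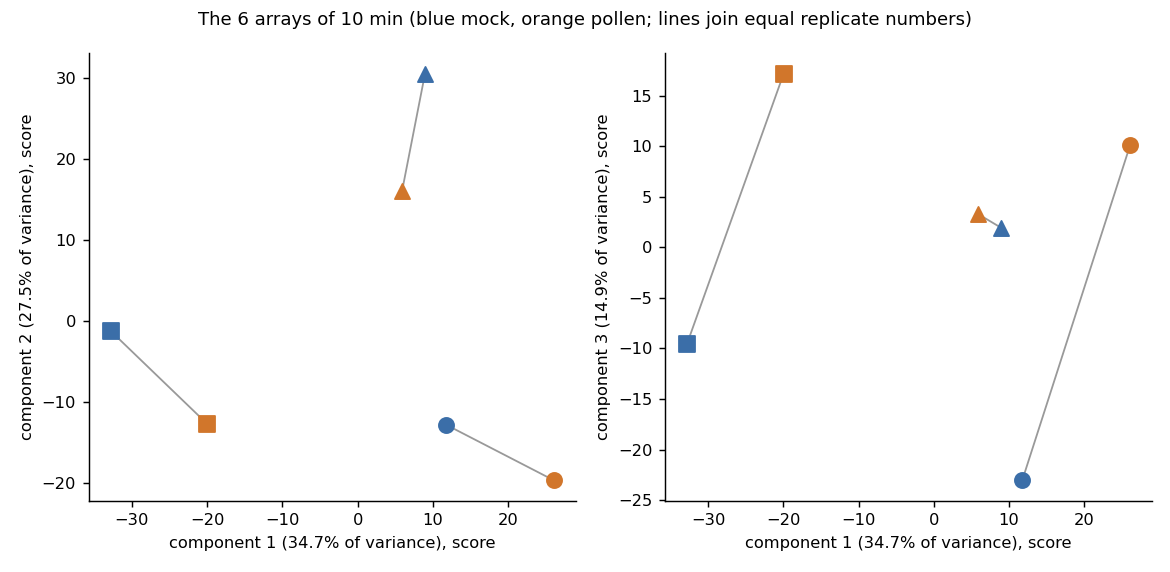
Scores of the 6 arrays of 10 min on the first 3 principal components, mock in blue and pollen in orange, with circles, squares and triangles for replicates 1, 2 and 3 and lines joining arrays of the same number. Replicate 2 stands apart from the others on component 1 and replicate 3 on component 2, while each pollen array lies below its mock partner on component 2 and above it on component 3 (14.9% of the variance).

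The effect of pollen was then compared with that at the next times, on other arrays. For the effect at 55 min minus that at 10 min, 0 of 32099 probes were called, a background of 0%, with 1211 at an unadjusted p under 0.05. One pollen array of 55 min, replicate 1, was of another array design, on another slide and from another scan day, and 0 probes were called without it. At 2h25 min 1 probe was called, 0.00312%, that of CCN2, a matricellular protein induced by mechanical strain and growth factors. Its effect was -0.06 at 10 min, 0.81 at 55 min and 1.44 at 2h25 min. The effect at 2h25 min exceeded that at 10 min by 1.497 ± 0.17 (SE, adjusted p = 0.000337, limma), and the effect at 55 min exceeded it by 0.87 (adjusted p = 0.945, limma). With the replicate block 5 probes were called, those of CCN2, MYC, SNAI1, ANGPTL4 and 1 unnamed transcript whose effect was lower at 2h25 min. For CCN2 the adjusted p was then 0.0189 (limma). CCN2 was not called when arrays were scaled to the percentile of their own probes (adjusted p = 0.431), by quantile normalization (0.0954) or left unscaled (1.00). The arrays of 2h25 min lay on other slides, and with the slide as a block CCN2 had an adjusted p of 0.000522 (limma).

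The immediate early lists gave other medians at the later times. The 22 transcription factors had a median pollen effect of 0.07 at 10 min with 13 higher, of 0.42 at 55 min with 21 higher and of 0.64 at 2h25 min with 21 higher. For the 42 other immediate early genes the medians were -0.02, 0.23 and 0.45, and for the 35 NF-kB targets -0.01, 0.29 and 0.69, with 16, 32 and 34 members higher. EGR2 had an effect of 0.03 at 10 min and 1.91 at 55 min, FOS of 0.55 and 1.77, and neither difference between times was called. DUSP6 stood at 0.02, 0.62 and 1.13, and SOCS3 at 0.09, 0.24 and 1.14, across the 3 times. Over all 24511 genes the medians at the 3 times were 0.00, -0.005 and -0.03, with 12459, 11981 and 10178 higher. No list was tested as a whole, and the lists were chosen with earlier results of these data known.

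**Figure D5:**
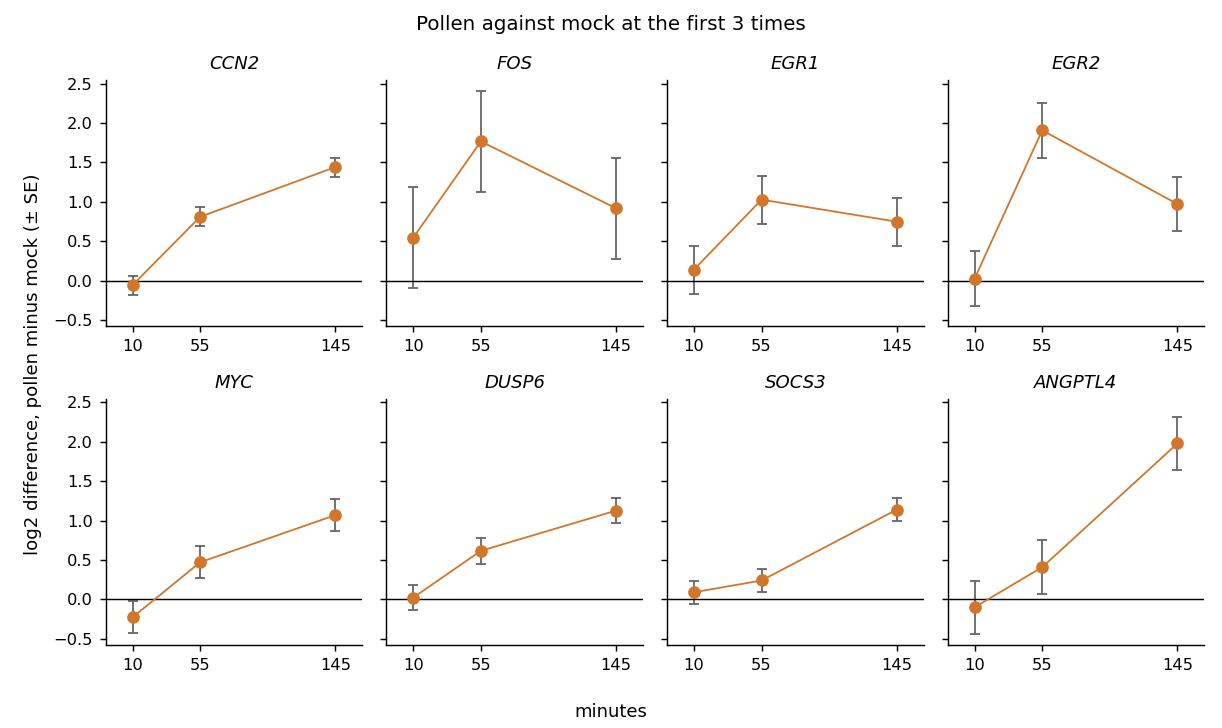
Log2 difference between pollen and mock, with its standard error, at 10 min, 55 min and 2h25 min for 8 genes, from 1 fit to all arrays. At 10 min every gene but FOS lies within 0.25 of 0, and CCN2 reaches 1.44 at 2h25 min.

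Between 10 min and 55 min mock cells changed, with the same number of arrays in each group. Of 32099 probes 60 were called, 0.187%, with 37 higher and 23 lower at 55 min. Of the 37, 17 were above background on none of the 3 mock arrays of 10 min and 11 on all 3. The 23 lower ones were above background on all 3. Tested over the probes above background on all 6 arrays of 10 min, 11 were called higher and 22 lower. The genes named here were chosen after their values were seen, from those above background on all 3 mock arrays. NR4A3, an immediate early nuclear receptor, was higher by 2.31, from -4.73, -4.71 and -4.67 to -3.05, -2.62 and -1.497. DUSP5, a nuclear phosphatase of ERK, was higher by 1.93, the Notch target HES1 by 1.51, CCN2 by 1.18 and the clock gene PER1 by 0.72. In NR4A3, DUSP5, HES1 and CCN2 the groups did not overlap. The most negative differences were -0.93 for ZNF610, a zinc finger gene, and -0.87 for the homeobox gene SIX4. The lower calls depended on the scaling, with 1 left when arrays were scaled to their own probes and 0 after quantile normalization, against 24 and 7 higher. The median change was 0.66 over the immediate early transcription factors, 1 of which was called, and 0.24 over the other immediate early genes, with 3 called. Over all 24511 genes it was 0.02, with 50 called.

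The slides limit this comparison. Only replicate 1 of mock 55 min shared the slide of the 10 min arrays. There all 60 probes kept their direction. This array was among the 3 that gave the calls, so the agreement is no separate check on the slides. On that slide CCN2 differed by 1.00 (adjusted p = 0.0342 with slide as a block, limma) and SIX4 by -0.88 (0.0493), and these were the only ones of the 60 still called, while NR4A3 differed by 1.65 (0.0573). Without mock 10 min replicate 2, 10 probes were called, and without replicate 3, 30.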

How the data were processed

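Labelled RNA of 30 samples was hybridised to 1-colour Agilent arrays of 2 designs. The deposited intensity values were made by the authors with Agilent Feature Extraction 11.0.1.1, per the file headers, which subtracted the background; annotation is on hg19. The authors also deposited log2 values, preprocessed in R with limma by steps not stated, used here as an alternative.

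Spots marked as outliers were left out and spots of a probe averaged. Each array's log2 signal was scaled to its 75th percentile over 33873 probes on both designs. Probes that some group had well above background in all its 3 arrays were fitted with limma 3.58.1 (R 4.3.3), with a mean for each of 10 groups over all 30 arrays and Benjamini-Hochberg adjustment. Calls needed an adjusted p under 0.05 and, except for differences between times, at least 1.1-fold. A gene was its probe with the highest mean. The fit was tested on simulated data. Intervals cover the spread between arrays within all 10 groups, not that of 10 min alone, and the number of arrays limits the precision.

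Arrays with the same number deviated together, with correlations of 0.39 in each of the 3 pairs, and the numbers were taken as pairs. These arrays also stood next to each other on the slide, so a shared exposure and a shared position cannot be told apart. The methods state that each exposure ran with its own mock control, without naming the numbers. Genes were named from a fixed panel, as the highest and lowest member of each list, as up to 5 genes each way with the largest difference, an unadjusted p under 0.05 and 1 direction in all pairs, and as up to 5 called probes for each comparison; for mock over time, genes were chosen after their values were seen. Genes and lists were chosen with earlier results of these data known. Alternatives covered scaling, background, filters, weights, blocks and leaving out arrays. Promoters came from RefSeq (GRCh38.p14) by symbol.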

Additional observations from a re-analysis of the deposited data

Results flagged for a closer look

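The effect of pollen on CCN2 differed between times. Pollen minus mock was -0.06 at 10 min and 1.44 at 2h25 min, and the interaction test gave a difference of 1.497 ± 0.17 (SE, adjusted p = 0.000337, limma). Groups of 3 arrays were too small to test for outlying samples.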

How the results depend on the processing

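Pollen against mock at 10 min gave 0 called probes under every alternative but 2: 1 without scaling between arrays (ENST00000503844, above background on 1 array) and 1 without the filter on dim probes (CSMD3, also on 1 array). Leaving out an array of 10 min gave 0 to 0. For the effect at 55 min minus that at 10 min, 2 probes were called without the filter, and leaving out an array gave 0 to 0. For 2h25 min minus 10 min, 0 were called with each array's own percentile, 0 with quantile normalization and 0 without scaling, 5 with the replicate block and 5 with the slide as a block, and leaving out an array gave 1 to 1. Added after seeing the data, the replicate block gave 2 with normexp and quantile normalization, 13 with array weights and 5 with probes above background on all 6 arrays. The replicate block gave 0 for the first 2 comparisons and changed no other call. For mock at 55 min against 10 min it could not be fitted as a fixed term, and as a random effect it gave 59. That comparison gave 25 with each array's own percentile, 7 with quantile normalization, 1 with normexp, 162 with the deposited values, 33 with probes above background on all 6 arrays, 1256 with array weights, 14 with the slide and 102 with the scan day as a block, and 10 to 66 leaving out an array. The cause was not tested for any of these. Without scaling, which shifted the median of all probes by 0.20, the medians were 0.26 for immediate early transcription factors, 0.18 for other immediate early genes and 0.18 for NF-kB targets. With quantile normalization the first was 0.013, and leaving out an array moved the second from -0.068 to 0.022. Over 1662 values of the 70 named probes, 0 were called and 58 changed sign, in 28 probes. Signal near background limits the dim probes.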
